A study of Rattus norvegicus with 6 samples.

Results

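The rat Cyp2c and Cyp2a genes encode constitutive cytochrome P450 enzymes, which hepatocytes make without an inducer and which hydroxylate steroids, fatty acids, retinoids and drugs. The genes listed were Cyp2c11, Cyp2c12, Cyp2c13, Cyp2c22, Cyp2c23, Cyp2c24, Cyp2c6v1, Cyp2c7, Cyp2a1 and Cyp2a2, 10 in all. Their probes were found by RefSeq accession, which gave 17 probes for 9 of the 15284 genes named on the array. Cyp2c24 was not analysed here, because no probe was matched to it. All 17 probes were well above background on all 6 arrays and none was saturated, so all 9 genes were among the 11344 genes tested.

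Liver RNA came from male Sprague-Dawley rats bought at 5 weeks of age, with 1 one-colour Agilent array per rat. The ADBAQ group held 3 rats given 1-amino-2,4-dibromoanthraquinone, an anthraquinone dye intermediate, at 1000 mg/kg/day. The vehicle group held 3 rats. The vehicle was water according to each sample's treatment label but corn oil according to the treatment protocol. The design text gives the time as 28 days, and the protocol gives 9 weeks.

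Several of these enzymes are textbook cases of sex-dependent liver expression in the rat. The adult male pituitary releases growth hormone in pulses, and each pulse activates the transcription factor STAT5b in hepatocytes. That pattern keeps Cyp2c11, Cyp2c13, Cyp2c22 and Cyp2a2 high in males, whereas the steadier hormone level of females goes with Cyp2c12, Cyp2c7 and Cyp2a1. Liver-enriched factors such as HNF4A, the FOXA proteins and C/EBP proteins also act on these promoters. All rats in these data were male, and no growth hormone values were used here.

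All members lie on chromosome 1. In the GRCr8 annotation of RefSeq, Cyp2a1 and Cyp2a2 are direct neighbours, as are Cyp2c11 and Cyp2c24, and Cyp2c12 and Cyp2c13. The promoters of Cyp2c11 and Cyp2c12 are shown because these were the genes whose signal passed the test, and that of Cyp2c13 because it is the neighbour of Cyp2c12. Each sequence is the 250 bases before the annotated start, from RefSeq on GRCr8, written in the direction of transcription. They lie at chr1:246174966-246175215 on the plus strand for Cyp2c11, chr1:248677035-248677284 on the minus strand for Cyp2c12 and chr1:248787189-248787438 on the minus strand for Cyp2c13. Capitals mark TATAAA, the core of the TATA box, on either strand, and CAAAGTTCA.
Cyp2c11: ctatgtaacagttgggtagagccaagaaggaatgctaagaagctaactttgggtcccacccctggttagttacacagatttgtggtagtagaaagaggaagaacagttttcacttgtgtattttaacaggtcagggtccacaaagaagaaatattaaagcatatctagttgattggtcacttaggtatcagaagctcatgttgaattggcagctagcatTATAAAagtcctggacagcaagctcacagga
Cyp2c12: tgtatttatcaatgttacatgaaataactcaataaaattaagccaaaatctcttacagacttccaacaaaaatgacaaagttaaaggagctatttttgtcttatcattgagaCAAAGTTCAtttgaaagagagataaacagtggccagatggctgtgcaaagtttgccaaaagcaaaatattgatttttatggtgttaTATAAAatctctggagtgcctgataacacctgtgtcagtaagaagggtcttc
Cyp2c13: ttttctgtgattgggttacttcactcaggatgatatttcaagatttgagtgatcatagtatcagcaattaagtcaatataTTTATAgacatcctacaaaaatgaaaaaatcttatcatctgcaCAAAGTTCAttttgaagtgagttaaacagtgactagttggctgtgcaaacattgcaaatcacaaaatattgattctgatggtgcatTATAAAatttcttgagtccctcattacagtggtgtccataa

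TATAAA began 31 bases before the start in Cyp2c11, 52 bases in Cyp2c12 and 41 bases in Cyp2c13, which had a further match on the reverse strand. It was in 7 of the 8 member promoters with a sequence, all but that of Cyp2c23, and in 12.9% of the 33469 promoters of the table. The only match in Cyp2c22 began 197 bases before the start, far from the positions above. CAAAGTTCA began 138 bases before the start in Cyp2c12 and 127 bases before it in Cyp2c13. Those were the 2 members with this motif, a variant of the HNF4 motif, which 0.281% of all promoters held. Both motifs were added after the sequences had been seen. The aligned promoters of Cyp2c12 and Cyp2c13 were identical at 61.1% of positions, and those of Cyp2c11 and Cyp2c24 at 66.5%, whereas Cyp2c11 and Cyp2c12 shared 47.3%.

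The other motifs were searched on both strands. None of the 8 member promoters held TTCNNNGAA, the STAT5 motif, which 7.67% of all promoters held. The same was true of CAAAGTCCA, bound by HNF4 (0.338% of all promoters), ATCGAT, bound by HNF6 (0.75%), TTATGTAA, bound by the PAR bZIP factors (0.828%), and GCGTG, the core bound by the aryl hydrocarbon receptor (25.9%). TTGCNNCAA, a C/EBP motif held by 1.75% of all promoters, was in 1 member, Cyp2a1. An absent match says only that these letters are not in the window searched.

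All 16 hepatocyte markers were well above background on all 6 arrays. The array's 75th percentile of the processed signal, to which all values below are relative, was 643, 570 and 596 on the ADBAQ arrays and 455, 461 and 433 on the vehicle arrays. Between 64.3% and 65.3% of the 61657 probes were well above background on an ADBAQ array, and between 62.1% and 62.8% on a vehicle array. All ADBAQ arrays were on 1 slide with 1 scan day and all vehicle arrays on another, so the group cannot be told apart from slide or scan day in what follows. The number of arrays limits the precision.

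The comparison of ADBAQ with vehicle addressed how exposure to this chemical went with liver expression. Among the members, Cyp2c11, the main P450 of adult male rat liver, fell 6.40-fold in ADBAQ rats. Cyp2c12, the female-specific steroid sulphate hydroxylase, rose 2.69-fold. The other 7 members did not pass an adjusted p of 0.05. Fold changes below are ADBAQ minus vehicle on the log2 scale unless written with -fold. They are given with the SE and adjusted p of limma (Benjamini-Hochberg over 38695 probes, n = 3 rats per group).

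**Figure D1:**
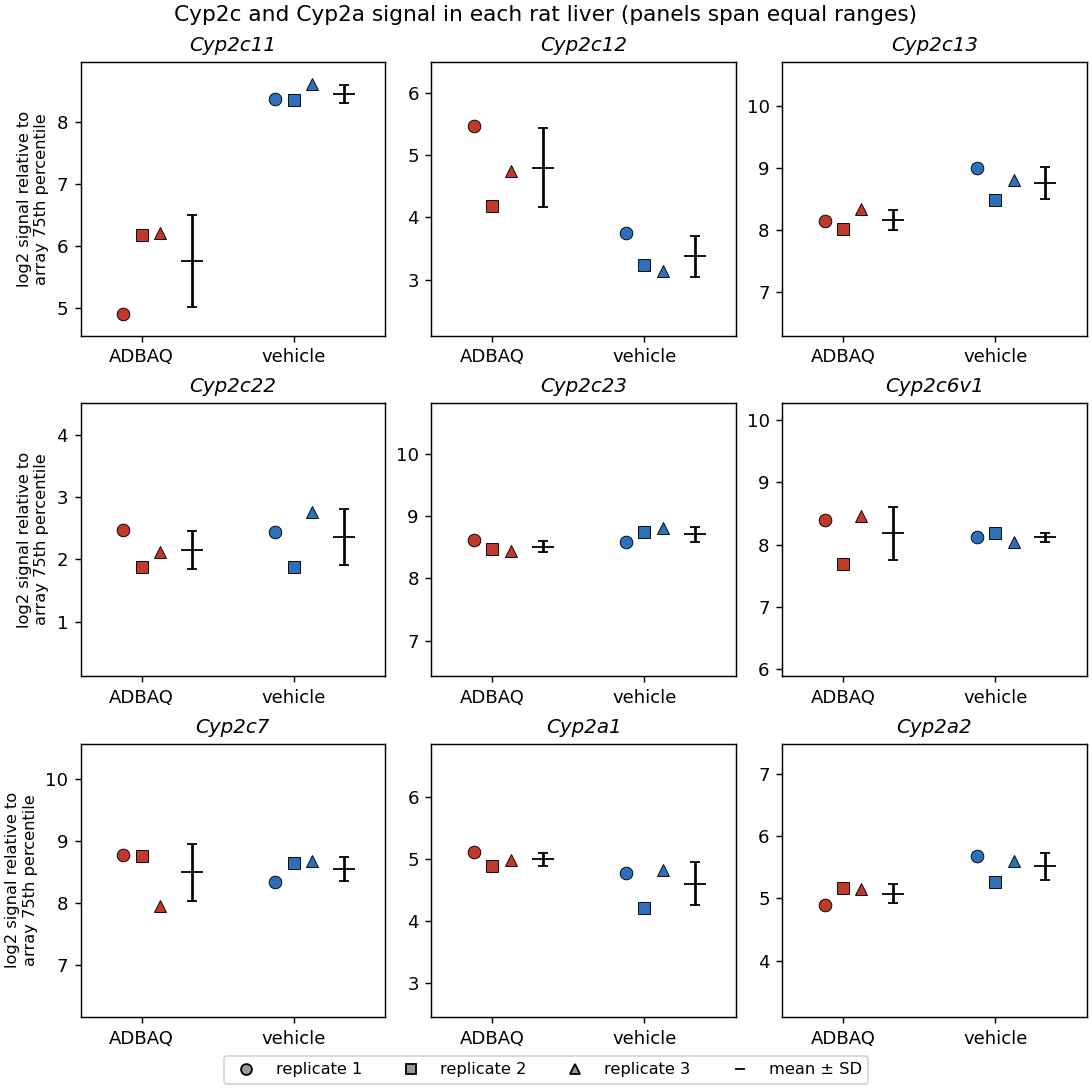
Signal of the 9 members in each liver, as log2 of the processed signal relative to the array's 75th percentile, with the probe that represents the gene. Symbols are rats, ADBAQ left and vehicle right, and the bars are mean ± SD (n = 3 each). Cyp2c11 lies between 4.91 and 6.21 in ADBAQ livers and between 8.35 and 8.62 in vehicle livers, Cyp2c12 lies higher in all ADBAQ livers, and the panels have different origins but the same height.

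Cyp2c11 (NM_019184) hydroxylates testosterone and many drugs. Its log2 signal was 4.91, 6.18 and 6.21 in ADBAQ livers, against 8.37, 8.35 and 8.62 in vehicle livers. The groups did not overlap, and ADBAQ replicate 1 lay well below the other two. The means were 5.77 ± 0.74 in ADBAQ and 8.45 ± 0.15 in vehicle (SD, n = 3 each), a log2 fold change of -2.68 ± 0.36 (SE; 95% interval -3.54 to -1.82; adjusted p = 0.00852). Before any scaling its processed signal was 19334, 41326 and 44176 on the ADBAQ arrays and 150704, 150553 and 169771 on the vehicle arrays, and the groups were apart there too. The fall passed the test under all 18 other settings of the processing, with log2 fold changes from -2.90 to -1.92 and adjusted p from 0.00220 to 0.0327.

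Cyp2c12 (NM_031572) is the counterpart of Cyp2c11 in female rat liver. Its log2 signal was 5.46, 4.19 and 4.75 in ADBAQ livers, against 3.75, 3.23 and 3.13 in vehicle livers. Every ADBAQ rat was above every vehicle rat, and ADBAQ replicate 1 was the highest. The means were 4.80 ± 0.64 in ADBAQ and 3.37 ± 0.33 in vehicle (SD, n = 3 each), a log2 fold change of 1.43 ± 0.34 (SE; 95% interval 0.61 to 2.25; adjusted p = 0.0360). The probe was well above background in vehicle livers too, so the signal was not new to the ADBAQ group. The call was lost when any array other than ADBAQ replicate 2 was left out. The log2 fold change was then 1.10 without ADBAQ replicate 1 (adjusted p = 0.0684), 1.45 without ADBAQ replicate 3 (0.0918), 1.62 without vehicle replicate 1 (0.0506), 1.36 without vehicle replicate 2 (0.0907) and 1.31 without vehicle replicate 3 (0.0995).

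The difference between the Cyp2c12 and Cyp2c11 signals within an array does not depend on how arrays are scaled. On the log2 scale it was 0.55, -1.99 and -1.46 in ADBAQ livers, against -4.62, -5.12 and -5.48 in vehicle livers, a shift of 4.11. Its sign cannot be read, because 2 probes differ in brightness, but its shift between groups can. The shift of the other 7 members against Cyp2c11 lay between 2.09 for Cyp2c13 and 3.07 for Cyp2a1.

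Of the other male-predominant members, Cyp2c13, a steroid hydroxylase, had log2 signals of 8.14, 8.01 and 8.34 in ADBAQ livers, against 9.0, 8.48 and 8.80 in vehicle livers. All 3 ADBAQ rats lay below all vehicle rats, by a mean of -0.59 ± 0.16 (SE, n = 3 each; limma adjusted p = 0.0509). That value lay just above the threshold. It was 0.0437 when probes had to be well above background on all 6 arrays, 0.0286 with a mean-dependent and robust variance, and 0.0403 without vehicle replicate 2. These were the only 3 of the 18 other settings past the threshold. With quantile normalisation it was 0.128 and with a replicate block 0.0656. With scaling to the spike-in controls the sign turned, to 0.16.

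Cyp2a2, a testosterone hydroxylase of male liver, had 2 probes. The first had log2 signals of 4.90, 5.17 and 5.15 in ADBAQ livers, against 5.68, 5.27 and 5.60 in vehicle livers. The second had 2.95, 3.12 and 3.22 in ADBAQ livers, against 3.74, 3.28 and 3.50 in vehicle livers. On both probes every ADBAQ rat was lower, with differences of -0.44 ± 0.14 and -0.41 ± 0.14 (SE, n = 3 each; limma adjusted p = 0.0794 and 0.0944). The first was past the threshold in only 2 of the 18 other settings. These were normexp background correction (0.0489) and a mean-dependent and robust variance (0.0471). With spike-in scaling it had the opposite sign, 0.31.

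Cyp2c22, which oxidises retinoic acid, did not separate the groups. Its log2 signal was 2.48, 1.87 and 2.12 in ADBAQ livers, against 2.44, 1.87 and 2.77 in vehicle livers. The difference was -0.20 ± 0.26 (SE, n = 3 each; limma adjusted p = 0.616; 95% interval -0.84 to 0.43). The interval holds changes in either direction. The 4 male-predominant members all had a negative log2 fold change, with a median of -0.52, which became 0.24 with spike-in scaling, where Cyp2c11 alone was still lower. Of the 3 female-predominant members 2 had a positive value, as had 5196 of the 11344 genes tested.

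Among the female-predominant members other than Cyp2c12, Cyp2a1, a testosterone hydroxylase, was also measured by 2 probes. The first had log2 signals of 5.10, 4.89 and 4.98 in ADBAQ livers, against 4.78, 4.20 and 4.82 in vehicle livers. The second had 3.62, 3.21 and 3.48 in ADBAQ livers, against 2.98, 2.30 and 3.04 in vehicle livers. Every ADBAQ rat was above every vehicle rat on both, with differences of 0.39 ± 0.18 and 0.67 ± 0.23 (SE, n = 3 each; limma adjusted p = 0.177 and 0.0883), neither past the threshold. The second was past it with normexp (0.75, adjusted p = 0.0319), and both were with spike-in scaling (1.15 and 1.42, adjusted p = 0.00180 and 0.00168). Vehicle replicate 2 lay lower than the other two vehicle rats on both probes, and without it the differences were 0.19 and 0.43.

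Cyp2c7, a female-predominant enzyme that oxidises retinoids, was measured by 6 probes. The brightest had log2 signals of 8.77, 8.75 and 7.96 in ADBAQ livers, against 8.34, 8.65 and 8.67 in vehicle livers. ADBAQ replicate 3 was the lowest of all rats and the other two ADBAQ rats were the highest, so the group means hardly differed. The same held on all 6 probes. Against each probe's vehicle mean ADBAQ replicates 1 and 2 lay at 0.20 to 0.79, whereas ADBAQ replicate 3 lay at -0.72 to -0.50. The 6 log2 fold changes lay between -0.06 and 0.35, and limma's adjusted p between 0.534 and 0.959. With spike-in scaling the brightest probe was called higher, at 0.70 (limma adjusted p = 0.0271).

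**Figure D2:**
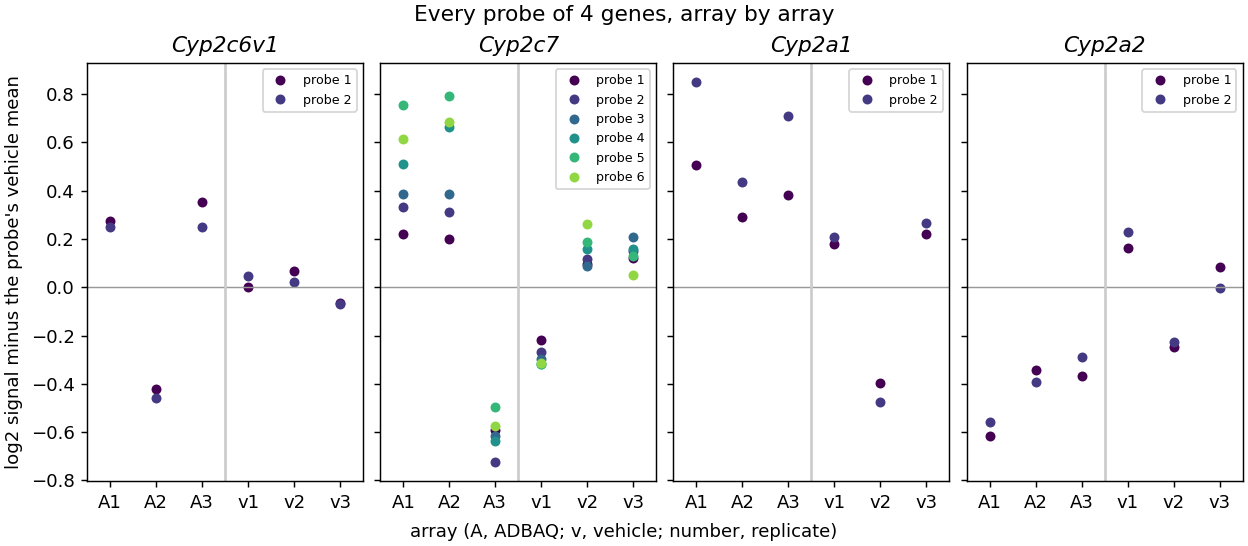
Every probe of the 4 members with more than 1 probe, as log2 signal minus that probe's vehicle mean, for each array (A, ADBAQ; v, vehicle). Points of 1 colour are 1 probe. Probes of a gene move together from array to array: all 6 Cyp2c7 probes are low in ADBAQ replicate 3, at -0.72 to -0.50, and both Cyp2c6v1 probes are low in ADBAQ replicate 2, at -0.46 to -0.42.

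The members that are not known for a sex difference were Cyp2c6v1, a major drug-metabolising form, and Cyp2c23, an arachidonic acid epoxygenase of liver and kidney. The brighter Cyp2c6v1 probe had log2 signals of 8.39, 7.69 and 8.47 in ADBAQ livers, against 8.11, 8.18 and 8.05 in vehicle livers. ADBAQ replicate 2 was the lowest rat on both probes and the other two ADBAQ rats were the highest. The differences between groups were 0.07 ± 0.21 and 0.01 ± 0.20 (SE, n = 3 each; limma adjusted p = 0.845 and 0.965). With spike-in scaling both probes were called higher, at 0.82 and 0.77 (limma adjusted p = 0.0128 and 0.0152).

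Cyp2c23 had log2 signals of 8.61, 8.48 and 8.44 in ADBAQ livers, against 8.58, 8.74 and 8.81 in vehicle livers. The groups overlapped, and the difference was -0.20 ± 0.10 (SE, n = 3 each; limma adjusted p = 0.211; 95% interval -0.45 to 0.05). With spike-in scaling the log2 fold change was 0.56 (limma adjusted p = 0.00253), past the threshold.

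**Figure D3:**
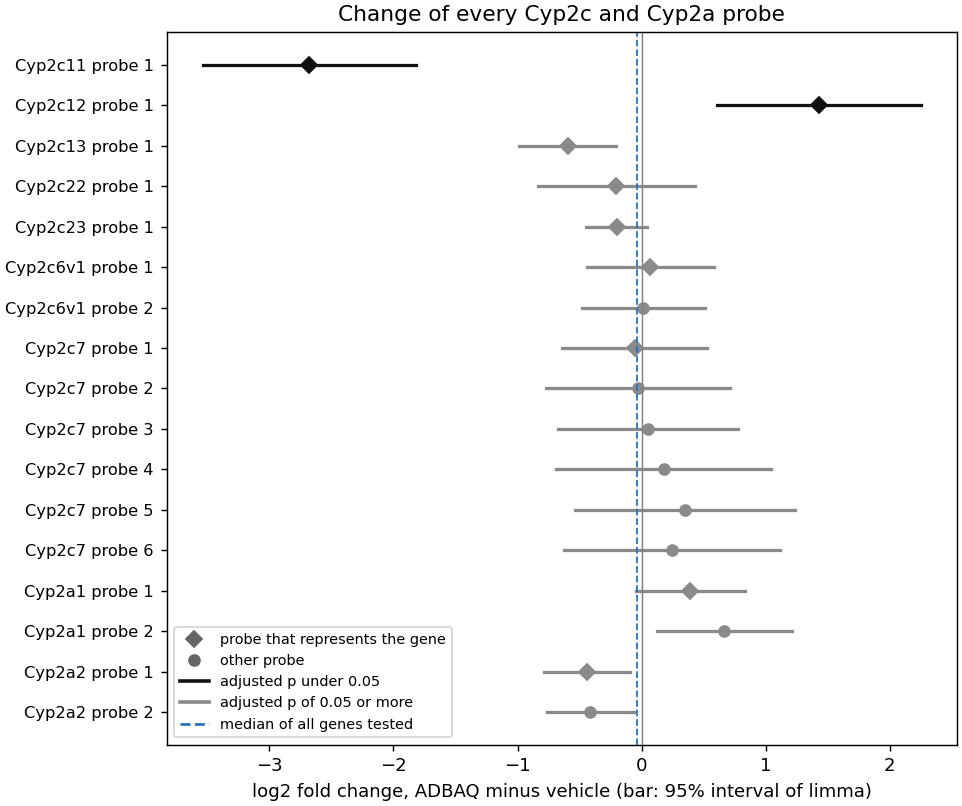
Log2 fold change, ADBAQ minus vehicle, of the 17 member probes with the 95% interval of limma. Black marks an adjusted p under 0.05, diamonds the probe that represents the gene, and the dashed line the median of all genes tested at -0.04. The Cyp2c11 and Cyp2c12 probes are the 2 past the threshold, in opposite directions.

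In all, 2 of the 9 members (22.2%) passed the test, 1 higher and 1 lower, against 20.3% of the 11344 genes tested, of which 1027 were higher and 1281 lower. The split over all genes was 1393 higher and 2651 lower with normexp background correction, and 8942 higher and 188 lower with spike-in scaling. Over probes the share was 2 of 17, against 18.4% of the 38695 probes tested. In 5 members (55.6%), 3 lower and 2 higher, the ADBAQ and vehicle rats did not overlap, against 46.3% of all genes. These shares are near those of all genes and are no result about the members. What they do not show is size: the median log2 fold change was -0.20 over the members and -0.04 over all genes, while Cyp2c11 alone stood at -2.68.

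The spread between rats differed among members. The SD of the log2 signal ran from 0.09 to 0.74 in ADBAQ livers and from 0.07 to 0.45 in vehicle livers. The largest SD in ADBAQ livers was that of Cyp2c11, and the smallest that of Cyp2c23. The rats that stood apart were not the same for each gene: ADBAQ replicate 1 lay farthest from the vehicle mean for Cyp2c11, Cyp2c12, Cyp2a1 and Cyp2a2, ADBAQ replicate 2 was the low one for Cyp2c6v1 and ADBAQ replicate 3 for Cyp2c7. These genes have close relatives, and hybridisation of a probe to a relative's transcript was not tested, since probe sequences were not used here.

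Genes with the same known sex bias, taken from a list chosen with earlier results of these data known, were set beside the members. Of 15 other male-biased genes tested, 9 fell and none rose (60%, against 20.3% of all genes), with a median log2 fold change of -0.81. With spike-in scaling 4 were lower and 2 higher, with a median of -0.05. Leaving out 1 array gave 5 to 7 lower, the fewest without vehicle replicate 2, and none higher. Car3, a carbonic anhydrase abundant in male rat liver, had log2 signals of 0.31, 1.33 and 1.68 in ADBAQ livers, against 4.63, 4.49 and 4.69 in vehicle livers. ADBAQ replicate 1 was again the lowest rat, and the difference was -3.50 ± 0.34 (SE, n = 3 each; limma adjusted p = 0.00381). Sult1c3, a sulphotransferase, had 4.55, 4.65 and 5.22 in ADBAQ livers, against 7.57, 7.50 and 7.65 in vehicle livers, a difference of -2.77 ± 0.19 (limma adjusted p = 0.00148). Both passed the test under all 18 other settings.

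Hsd3b5, a hydroxysteroid dehydrogenase, had log2 signals of 6.19, 6.88 and 7.08 in ADBAQ livers, against 7.79, 8.25 and 8.54 in vehicle livers. Its groups did not overlap, and it differed by -1.47 ± 0.29 (SE, n = 3 each; limma adjusted p = 0.0206), a call lost without ADBAQ replicate 2, vehicle replicate 2 or vehicle replicate 3. Mup4, a major urinary protein gene, differed by -1.51 ± 0.29 (limma adjusted p = 0.0208). It belongs to a family of near-identical copies that a probe may not separate, and its call was lost without any 1 array other than ADBAQ replicate 2.

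Of 11 other female-biased genes tested, none rose and 3 fell, with a median log2 fold change of -0.49. The share called was 27.3%, near the 20.3% of all genes. With spike-in scaling 5 were higher and 3 lower, with a median of 0.27. The count of higher genes was 1 with normexp, 2 without vehicle replicate 1 and 1 without vehicle replicate 2, and the median was -0.19 without ADBAQ replicate 3 and -0.29 without vehicle replicate 2. The 3 that fell were Cyp3a9, a P450 of another family, at -5.34 ± 0.34, Rarres1, at -1.13 ± 0.13, and Hao2, a hydroxyacid oxidase, at -1.01 ± 0.10 (SE, n = 3 each; limma adjusted p = 0.00140, 0.00600 and 0.00417). Cyp3a9 had log2 signals of -2.77, -3.03 and -2.13 in ADBAQ livers, against 2.22, 2.55 and 3.30 in vehicle livers, with no overlap. The sex bias of Rarres1 and Hao2 is the least certain of the list. Other genes of the list had higher means in ADBAQ livers without passing the test. Prlr differed by 1.83 ± 0.75 and Sult2a6, a sulphotransferase, by 1.00 ± 0.51 (SE, n = 3 each; limma adjusted p = 0.136 and 0.207). A1bg, a plasma glycoprotein, differed by 2.58 ± 0.86. Its probe was well above background on 1 vehicle array and passed the filter only through the ADBAQ arrays, where it is high. No p is therefore given for A1bg. These 3 genes were picked after their values were seen, and the groups overlapped in each. With probes required to be well above background on all 6 arrays, 10 genes of the list were tested. Of these 3 fell and none rose, with a median of -0.65.

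**Figure D4:**
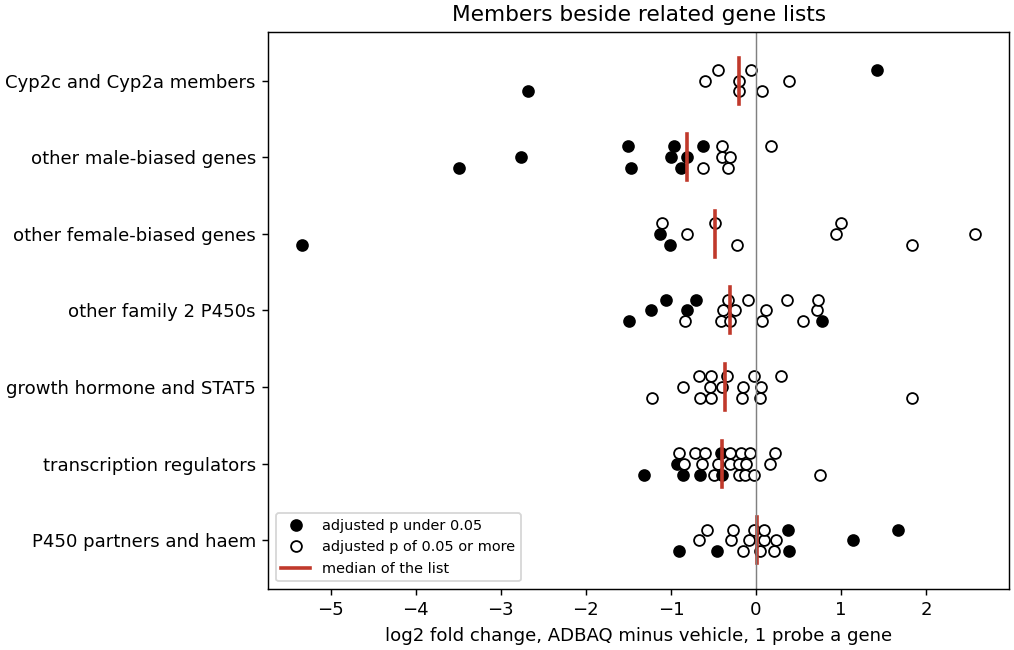
Log2 fold changes, ADBAQ minus vehicle, of the members and of 6 lists of related genes, 1 probe a gene, relative to the array's 75th percentile. Filled circles have an adjusted p under 0.05 and red bars are medians. Calls are lower in 9 of 15 other male-biased genes and 3 of 11 other female-biased genes, but with spike-in scaling every value moves up by 0.76 and each median except that of the other male-biased genes, at -0.05, lies above 0.

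Growth hormone signalling to STAT5 was read through 16 genes. None passed limma's adjusted threshold, against 20.3% of all genes, and the median was -0.37. With normexp 3 were called lower, and with spike-in scaling 8 were called higher. At an unadjusted p under 0.05 there were 6. The share of all genes at that p was not computed, so this count is no result about the list. Ghr, the growth hormone receptor, differed by -0.34 ± 0.11 (SE, n = 3 each; limma adjusted p = 0.0818) on the probe used, but of its 4 probes no other had that sign. Stat5b differed by -0.54 ± 0.17 (0.0753), and Igf1, a growth hormone target, by -0.53 ± 0.17 (0.0795).

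The feedback genes Cish and Socs2, which STAT5 activates, varied widely between rats. Cish had log2 signals of 0.39, -0.66 and -2.08 in ADBAQ livers, against -0.66, 0.92 and 1.05 in vehicle livers. Socs2 had 1.48, 0.79 and -0.64 in ADBAQ livers, against -0.06, 2.12 and 2.14 in vehicle livers. The groups overlapped in both, and the differences were -1.22 ± 0.72 and -0.86 ± 0.77 (SE, n = 3 each; limma adjusted p = 0.272 and 0.461).

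Of 25 transcription regulators listed for these promoters, 6 fell and none rose, with a median of -0.40. The share called was 24%, near the 20.3% of all genes. With spike-in scaling 12 were higher and 1 lower, with a median of 0.36. Leaving out 1 array gave 4 to 6 lower, and without ADBAQ replicate 3 the median was -0.22. Foxa3, a forkhead factor, had log2 signals of 0.50, 0.48 and 0.38 in ADBAQ livers, against 1.99, 1.89 and 1.44 in vehicle livers, a difference of -1.32 ± 0.16 (SE, n = 3 each; limma adjusted p = 0.00665) that passed the test under all 18 other settings. Cebpa differed by -0.93 ± 0.13 (0.00899) and Rxra, the retinoid X receptor partner of nuclear receptors, by -0.86 ± 0.10 (0.00573), and both calls were lost with spike-in scaling.

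The glucocorticoid receptor Nr3c1 differed by -0.65 ± 0.10 (SE, n = 3 each; limma adjusted p = 0.0109). Its call was lost with its dimmest probe, and with spike-in scaling the value was 0.10. The pregnane X receptor Nr1i2 differed by -0.41 ± 0.11 (limma adjusted p = 0.0498), a call lost under 10 of 18 settings, and turned to 0.35 with spike-in scaling. Hnf4a differed by -0.30 ± 0.14 (0.173) and Nr1i3, the constitutive androstane receptor, by -0.18 ± 0.25 (0.647).

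Of 19 other P450 genes of family 2, 5 fell and 1 rose (31.6%, against 20.3% of all genes), with a median of -0.30. Where probes had to be well above background on all 6 arrays, 7 of 18 fell and none rose. With spike-in scaling 12 were higher and 2 lower. Cyp2d3 differed by -1.49 ± 0.11 and Cyp2d4 by -1.24 ± 0.09 (SE, n = 3 each; limma adjusted p = 0.00179 and 0.00161), and both passed the test under all 18 other settings. Cyp2e1, the ethanol-oxidising form, differed by -1.06 ± 0.14 (0.00813) and Cyp2d5 by -0.81 ± 0.17 (0.0242), and neither was called with spike-in scaling. The call of Cyp2d5 was also lost without ADBAQ replicate 1 or 2 and without vehicle replicate 1 or 2. The count of 5 that fell was 3 without ADBAQ replicate 1, ADBAQ replicate 2 or vehicle replicate 2, and with 1 array left out a gene was called higher only without ADBAQ replicate 1. The Cyp2d genes are close relatives of each other, so their probes may share transcripts. In other families, 4 of 12 inducible P450 genes rose and 2 fell (50%, against 20.3% of all genes), against 5 and 1 with spike-in scaling. With probes required to be well above background on all 6 arrays, 2 of 10 rose and 2 fell. The largest changes besides the fall of Cyp3a9 were in aryl hydrocarbon receptor targets. Cyp1a2 rose by 3.88 ± 0.15 on the log2 scale (SE, n = 3 each; limma adjusted p = 0.000403). Cyp1a1 was 12.54 ± 0.68 higher on that scale, and Cyp1b1 was at least 20.2-fold higher. In vehicle livers the Cyp1a1 probe was well above background on 1 array and the Cyp1b1 probe used on none, so the Cyp1a1 value rests on dim signals. Both probes passed the filter only through the ADBAQ arrays, where they are high, so no p is given for them. The bound sets the ADBAQ mean against the higher of the lowest signal detected on each vehicle array and the probe's own.

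P450 enzymes need electrons from cytochrome P450 reductase, encoded by Por, and haem. Of 18 genes of electron supply and haem turnover, 4 rose and 2 fell (33.3%, against 20.3% of all genes), with a median of 0.01. With spike-in scaling 14 were higher and none lower. Leaving out any 1 array gave 2 higher and 1 lower, except without vehicle replicate 3, where 2 were higher and 2 lower. Por had log2 signals of 4.41, 3.90 and 3.70 in ADBAQ livers, against 3.01, 2.79 and 2.78 in vehicle livers, with no overlap and a difference of 1.14 ± 0.19 (SE, n = 3 each; limma adjusted p = 0.0150). Hmox1, which breaks haem down, had 3.66, 2.80 and 2.71 in ADBAQ livers, against 1.38, 1.34 and 1.40 in vehicle livers, a difference of 1.68 ± 0.25 (limma adjusted p = 0.0110). ADBAQ replicate 1 was the highest rat for both. Alad, an early enzyme of haem synthesis, differed by -0.91 ± 0.09 (0.00456), a call lost with spike-in scaling. Cyb5r3, a cytochrome b5 reductase, differed by -0.46 ± 0.12 (0.0441), a call lost under 10 of 18 settings and with the opposite sign, 0.30, under spike-in scaling.

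Of the 16 hepatocyte markers, 12 fell and 1, Tat, rose (81.2%, against 20.3% of all genes), with a median of -0.58. The counts were 4 lower and 1 higher with quantile normalisation and 2 lower and 5 higher with spike-in scaling. Leaving out 1 array gave 5 to 8 lower, the fewest without ADBAQ replicate 1, and 1 higher each time. Cps1, of the urea cycle, differed by -1.21 ± 0.14 and Apoc3, an apolipoprotein, by -1.17 ± 0.11 (SE, n = 3 each; limma adjusted p = 0.00622 and 0.0034). The summed signal of the 16 markers over the 75th percentile was 6230 to 6655 in ADBAQ livers and 8743 to 9451 in vehicle livers. Fewer cells of a type and less RNA per cell cannot be told apart in such bulk samples. The summed signal of 6 cholangiocyte markers was 2.71 to 4.04 in ADBAQ livers and 1.84 to 2.14 in vehicle livers, with 2 genes higher and 1 lower (5 and 0 with spike-in scaling). The part of these differences in the fall of Cyp2c11 was not tested.

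No marker of macrophages (10 genes), stellate cells and fibroblasts (9), endothelial cells (6) or lymphoid cells and neutrophils (7) passed limma's adjusted threshold, whereas with spike-in scaling 10, 8, 5 and 7 were higher. Of all genes 20.3% passed the adjusted threshold. At an unadjusted p under 0.05 the counts were 0, 2, 2 and 0. The share of all genes at that p was not computed. Their summed signals were 124 to 140 in ADBAQ and 115 to 142 in vehicle for macrophages, 31.9 to 36.3 and 34.4 to 46.8 for stellate cells, 31.3 to 35.7 and 38.1 to 42.0 for endothelial cells, and 3.68 to 4.82 and 3.19 to 4.40 for lymphoid cells and neutrophils, ADBAQ and vehicle in that order. Of 4 kidney markers tested 2 were lower, against 2 higher with spike-in scaling, and Kap and Slc34a1 did not reach the detection criterion on any array. Their summed signal was 9.48 to 13.5 in ADBAQ and 10.9 to 15.2 in vehicle.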

How the data were processed

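Each of 6 rats gave 1 array. Scanning output came from Agilent Feature Extraction, version 10.7.1.1 per the file headers and 10.7 in the submitters' processing notes, for an array designed on rn4. The deposited scanner files hold linear intensity values: the background-subtracted processed signal, and medians of the spot and of its local background. Flags (unit other) mark spots well above background, saturated or outlying, per the file headers. The authors' deposited series table holds a ratio, the processed signal over the array's 75th percentile. It matched the scanner values for 100% of probes, where a match was within 1% or within a small fixed difference. The scale of the ratio is therefore linear, with no centring on genes and the direction of the signal. Its column medians were 0.0929, 0.0971 and 0.0952 for ADBAQ and 0.0967, 0.097 and 0.0982 for vehicle.

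Each processed signal was log2-transformed here and the array's 75th percentile, on the same scale, was subtracted. A probe was kept if all 3 arrays of either group had it well above background, outlier spots were left out, and the probe with the highest mean stood for its gene. RefSeq accessions named 27460 of 61657 probes, leaving 34197 unnamed, and 1319 control spots were left out. The test was limma's (version 3.58.1, lmFit then eBayes, R 4.3.3), adjusted by Benjamini-Hochberg over 38695 probes with a threshold of 0.05. The p-values measure the spread between rats. An exact permutation test of 3 against 3 cannot go below 0.1 and was not used. The procedure was tested on simulated data.

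The members and gene lists were chosen with earlier results of these data known. Of 217 list symbols, 210 matched the table of gene names. Every member is named, and up to 4 genes of each list, the called ones with the largest changes whose groups do not overlap, plus 8 signalling and regulator genes fixed by name. Prlr, Bcl6, Cyp3a9, Cyp3a18, Cyp3a2 and Cyp4a2 are each in more than one list. The lists' sex bias is from general knowledge and is least certain for Rarres1 and Hao2. Alternatives were normexp (offset 50, on the median spot signal the mean was not used here), quantile normalisation, the array median, scaling to 8 spike-in probes, other filters, the series table, trend and robust, array weights, a replicate block, other probe choices and leaving out each array.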

Additional observations from a re-analysis of the deposited data

How the results depend on the processing

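Cyp2c11 kept its direction and its call under all 18 alternatives. Cyp2c12 kept its direction, with log2 fold changes of 1.10 to 2.19, and lost its call in 5, as given above. Scaling to the spike-in controls adds 0.76 to every log2 fold change and puts the median of all genes at 0.72. It gave 6 called members (5 higher, 1 lower), 12 called member probes, 9130 genes (97.9% higher) and 30789 probes, and turned Cyp2c13 to 0.16, Cyp2c22 to 0.55, Cyp2c23 to 0.56, Cyp2c7 to 0.70 and Cyp2a2 to 0.31. Which scaling is nearer the RNA content of the livers was not tested. Normexp gave 4 member probes, 4044 genes (34.4% higher, against 44.5%) and 13677 probes. With no filter, 3530 genes and 14591 probes were called. A mean-dependent and robust variance gave 4 members and 4 member probes. Cyp2c7, at -0.06, turned to 0.032 with normexp, 0.11 with quantile normalisation, 0.12 as the mean of its probes and 0.24 on its dimmest probe. For these changes the cause was not tested.

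Replicate numbers did not pair the rats: same-numbered rats' deviations from their group means correlated at -0.03, -0.02 and -0.00. The replicate block gave 982 genes and 2953 probes, with both called members still past the threshold. It also gave 6 lower male-biased genes, 3 lower and 1 higher female-biased genes, 3 lower hepatocyte markers, 3 lower regulators and, of the P450 partners, 2 higher and 1 lower, and did not call Mup4 or Nr3c1. Leaving out 1 array gave 1 to 2 members, 1 to 2 member probes, 901 to 1543 genes and 2770 to 4716 probes, from fewer arrays. Leave-one-out values ran from -0.19 to 0.21 for Cyp2c7, -0.447 to 0.0012 for Cyp2c22 and -0.074 to 0.312 for Cyp2c6v1. Slide as a block was not run, since each slide held 1 group.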

Other observations

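A few regulatory genes, picked after their values were seen, differed more between rats of a group than any member did. Bcl6, a repressor of STAT5 targets, had log2 signals of 0.78, 0.26 and 3.92 in ADBAQ livers, against 3.40, 1.34 and 1.41 in vehicle livers. Onecut1, the factor HNF6, had 4.94, 4.63 and 2.51 in ADBAQ livers, against 1.68, 5.87 and 6.03 in vehicle livers. Prlr, the prolactin receptor, had 0.88, 0.28 and -1.39 in ADBAQ livers, against -3.04, -0.78 and -1.90 in vehicle livers. In each of the 3 genes, and in Cish and Socs2, ADBAQ replicate 3 stood apart from the other ADBAQ rats, and vehicle replicate 1 from the other vehicle rats in Bcl6, Onecut1, Cish and Socs2. None of the 5 was called by limma, at adjusted p from 0.136 for Prlr to 0.817 for Bcl6. The same 2 rats were the lowest of their groups for all 6 Cyp2c7 probes.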
